A study of Mus musculus with 16 samples.

Results

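The oligoadenylate synthetase (OAS) family was examined through the 6 members Oas1a, Oas1g, Oas2, Oas3, Oasl1 and Oasl2, which were selected by gene symbol from the 22287 genes of the count table. The libraries were made from bone marrow of C57BL/6J mice aged 8 weeks of no stated genetic modification. Bone marrow cells matured for 7 days with GM-CSF (GM-BMDMs) or M-CSF (M-BMDMs), which are growth factors that give functionally distinct macrophage populations. They were grown on tissue culture treated dishes (TC), whose surface favours adhesion, or on untreated polystyrene (noTC), and were left at steady state or challenged for 3 h with LPS, the bacterial lipopolysaccharide sensed through TLR4. The groups are named GM-TC and GM-noTC or M-TC and M-noTC, with -LPS added upon challenge, and each of these 8 groups had 2 biological replicates, so that 16 libraries were available. Whether replicates came from separate mice was not given in the sources used here, and p-values measure the spread between these libraries.

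OAS enzymes bind double-stranded RNA and build short oligoadenylates from ATP, which serve as second messengers of antiviral defence and are removed by phosphodiesterases. The genes are classic interferon-stimulated genes: type I interferon signals from its receptor to a promoter element called the ISRE, the interferon-stimulated response element, and macrophages produce interferon beta when TLR4 is engaged. The family divides into synthetases proper (Oas1a, Oas1g, Oas2, Oas3) and OAS-like proteins with a ubiquitin-like tail (Oasl1, Oasl2).

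All 6 members passed the filter on low counts that left 12514 genes for testing. Total counts lay between 17527802 and 31458363 per library, and 3 counts corresponded to 0.0954 to 0.171 CPM, the count divided by the library's total and brought to a common scale, a floor that covers counting error only. CPM below include edgeR's TMM factors unless stated. The GM-TC replicates stood furthest apart, with a chi-square of 12.9 per degree of freedom between their counts comparing with 1.93 to 5.27 in the other groups. Of 7 macrophage markers, none was at 0 in any group. The lowest library value was 214 CPM for Adgre1, which encodes F4/80, and 19.0 CPM for Mertk, the lowest of the 7. The summed level of 6 dendritic cell markers was 908 to 1088 CPM in the GM-BMDM libraries and 15.6 to 62.6 CPM in the M-BMDM libraries, that of 8 neutrophil markers was 12.7 to 44.7 CPM comparing with 0.337 to 2.05 CPM, and the 5 T and NK cell markers summed to at most 0.517 CPM. Markers of heart muscle, 6 in all, summed to 20.1 to 56.1 CPM in the untreated TC libraries and to at most 0.814 CPM elsewhere. The part of these cells in the differences between growth factors or dishes below was not tested, and in bulk RNA fewer cells of a type and less RNA per cell cannot be told apart.

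All members lie on chromosome 5 in the mouse annotation (GENCODE, GRCm38), in 2 separate clusters. Oasl2 (chr5:114896936-114912234) and Oasl1 (chr5:114923240-114937915) are neighbours on the plus strand. Oas2 (chr5:120730333-120749853), Oas3 (chr5:120753098-120777661), Oas1g (chr5:120876142-120887613) and Oas1a (chr5:120896256-120907521) lie on the minus strand of the second cluster. Promoter windows of RefSeq (GRCm38.p6), from 250 bases before to 50 bases after the start, were found for 5 members, and Oas2 was the member without one. The ISRE core was searched on both strands as GAAA followed, after any 2 bases, by another GAAA. This pattern occurred in 3.44% of the 32851 windows, and it was found in the windows of Oas1a, Oas1g and Oas3. The 150 bases before the start of these 3 genes are shown on the minus strand, because they carry the match, with the matching bases in capitals.
Oas1a (chr5:120907526-120907675): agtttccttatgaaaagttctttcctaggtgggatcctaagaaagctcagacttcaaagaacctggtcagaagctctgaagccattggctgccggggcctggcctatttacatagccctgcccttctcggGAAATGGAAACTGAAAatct
Oas1g (chr5:120887614-120887763): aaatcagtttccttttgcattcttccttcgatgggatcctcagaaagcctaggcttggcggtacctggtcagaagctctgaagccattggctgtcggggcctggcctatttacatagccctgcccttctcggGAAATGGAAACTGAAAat
Oas3 (chr5:120777660-120777809): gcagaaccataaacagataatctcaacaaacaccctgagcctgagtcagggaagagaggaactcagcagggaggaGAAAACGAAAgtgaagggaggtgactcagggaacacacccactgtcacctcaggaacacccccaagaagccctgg
In Oas1a and Oas1g the capitals mark 2 overlapping matches in each gene. The first begins 20 bases before the start in Oas1a and 18 bases before it in Oas1g. The same letters stand in both genes, and their printed stretches were identical in 83.2% of 155 aligned columns. Oas3 held a single match 75 bases before its start. No match to these letters was present in the windows of Oasl1 and Oasl2. A match describes the sequence only.

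The assignment of reads between Oas1a and Oas1g was uncertain. Their longest transcripts were identical in 90.6% of aligned columns, and 57.6% of the stretches of 50 bases in Oas1a transcripts also occurred in Oas1g transcripts. Neither gene held a whole count in any of the 16 libraries, whereas their sum was whole (within 0.005) in 15 libraries and, with Oas1b added, in all 16. Oas1g took between 12.1% and 29.1% of the sum. Each is therefore given as deposited, and the sum is named where it gave another call. The other 4 members held whole counts in every library.

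Upon LPS challenge all 6 members rose in all 4 cultures, where 32.8%, 33.6%, 37.6% and 36.4% of the tested genes were called higher, for GM-TC, for GM-noTC, for M-TC and for M-noTC cells, and 34.2%, 34.0%, 36.4% and 35.9% lower. A call here is an adjusted p under 0.05 in edgeR's quasi-likelihood test with Benjamini-Hochberg (BH) adjustment over all tested genes. The median log2 change of the members was 3.97, 3.72, 2.30 and 1.93 in the same order, while that of all tested genes lay between -0.05 and -0.01. Every member was higher in each LPS library than in each untreated library of its own culture, a separation not counted over all tested genes. All 6 members were called under every alternative processing, as 5 of 5 where Oas1a and Oas1g were summed.

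Oas1a, a small synthetase, read 27.4 and 31.6 CPM for GM-TC, 26.0 and 24.6 for GM-noTC, 82.4 and 90.8 for M-TC and 87.8 and 90.7 for M-noTC libraries. After LPS the values were 140.0 and 154 for GM-TC-LPS, 133 and 132 for GM-noTC-LPS, 309 and 299.9 for M-TC-LPS and 261 and 269 for M-noTC-LPS. It was the member with the smallest rise in GM-BMDMs, with log2 changes (± SE) of 2.31 ± 0.072 on TC and 2.39 ± 0.072 on noTC dishes, comparing with 1.81 ± 0.064 and 1.57 ± 0.063 in M-BMDMs (edgeR, adjusted p between 4.9e-18 and 7.4e-16). Its close relative Oas1g started lower. It read 4.85 and 4.39 CPM for GM-TC, 5.71 and 4.88 for GM-noTC, 21.2 and 20.3 for M-TC and 25.0 and 26.3 for M-noTC, and after LPS 53.1 and 60.9 on TC and 49.9 and 50.1 on noTC dishes with GM-CSF, and 108 and 118 on TC and 99.3 and 110.5 on noTC dishes with M-CSF. The rise was 12.4-fold and 9.47-fold in GM-BMDMs on TC and noTC dishes, and 5.45-fold and 4.08-fold in M-BMDMs. In both genes the highest values were those of the LPS-treated M-BMDMs.

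Oas2 and Oas3 are larger synthetases built from repeated OAS units. Oas2 was low in untreated GM-BMDMs, at 4.54 and 4.63 CPM on TC and 3.83 and 5.62 CPM on noTC dishes. Untreated M-BMDMs held 71.9 and 72.4 CPM on TC and 78.8 and 82.0 CPM on noTC dishes. After LPS it reached 89.3 and 91.9 CPM for GM-TC-LPS, 80.9 and 87.2 for GM-noTC-LPS, 322 and 325 for M-TC-LPS and 272 and 300.0 for M-noTC-LPS. Stimulated GM-BMDMs thus came close to the level of resting M-BMDMs, and the libraries of GM-noTC-LPS and M-noTC overlapped. The log2 change was 4.30 ± 0.10 for GM-TC and 2.16 ± 0.071 for M-TC cells. Oas3, the largest of the synthetases, read 16.2 and 14.6 CPM for GM-TC, 15.7 and 17.4 for GM-noTC, 178 and 181 for M-TC and 226 and 224 for M-noTC. After LPS it read 156 and 191 for GM-TC-LPS, 159 and 164 for GM-noTC-LPS, 556 and 577 for M-TC-LPS and 557 and 579 for M-noTC-LPS. It was the only member whose mean in stimulated GM-BMDMs did not exceed that of resting M-BMDMs on either dish, the libraries of GM-TC-LPS and M-TC overlapping. Its rise was 11.3-fold in GM-TC and 2.52-fold in M-noTC cells, the smallest change among members and cultures.

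Oasl1 encodes an OAS-like protein without synthetase activity that is known in the mouse to restrain translation of Irf7. It showed the widest range. Its untreated levels were 0.656 and 0.564 CPM for GM-TC (13 and 14 counts), 2.53 and 2.48 for GM-noTC, 5.15 and 4.60 for M-TC and 10.9 and 10.9 for M-noTC. After LPS it stood at 462 and 478 CPM for GM-TC-LPS, 497 and 504 for GM-noTC-LPS, 473 and 446 for M-TC-LPS and 575 and 557 for M-noTC-LPS. The untreated groups did not overlap and spread widely, while the LPS groups lay close together, so the fold changes were largest where the starting level was lowest, with log2 changes of 9.59 ± 0.098 for GM-TC, 7.64 ± 0.079 for GM-noTC, 6.56 ± 0.072 for M-TC and 5.70 ± 0.064 for M-noTC (edgeR, adjusted p between 5e-26 and 1.8e-25). Oasl2, an OAS-like protein that keeps synthetase activity, was the most abundant member after LPS in M-BMDMs in CPM. It read 24.0 and 23.0 CPM for GM-TC, 22.0 and 26.2 for GM-noTC, 185 and 188 for M-TC and 238 and 242 for M-noTC, and after LPS 448 and 476 on TC and 444 and 464 on noTC dishes with GM-CSF, and 994 and 1025 on TC and 978 and 1050.1 on noTC dishes with M-CSF. It rose 19.7-fold in GM-TC and 5.40-fold in M-TC cells.

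**Figure D1:**
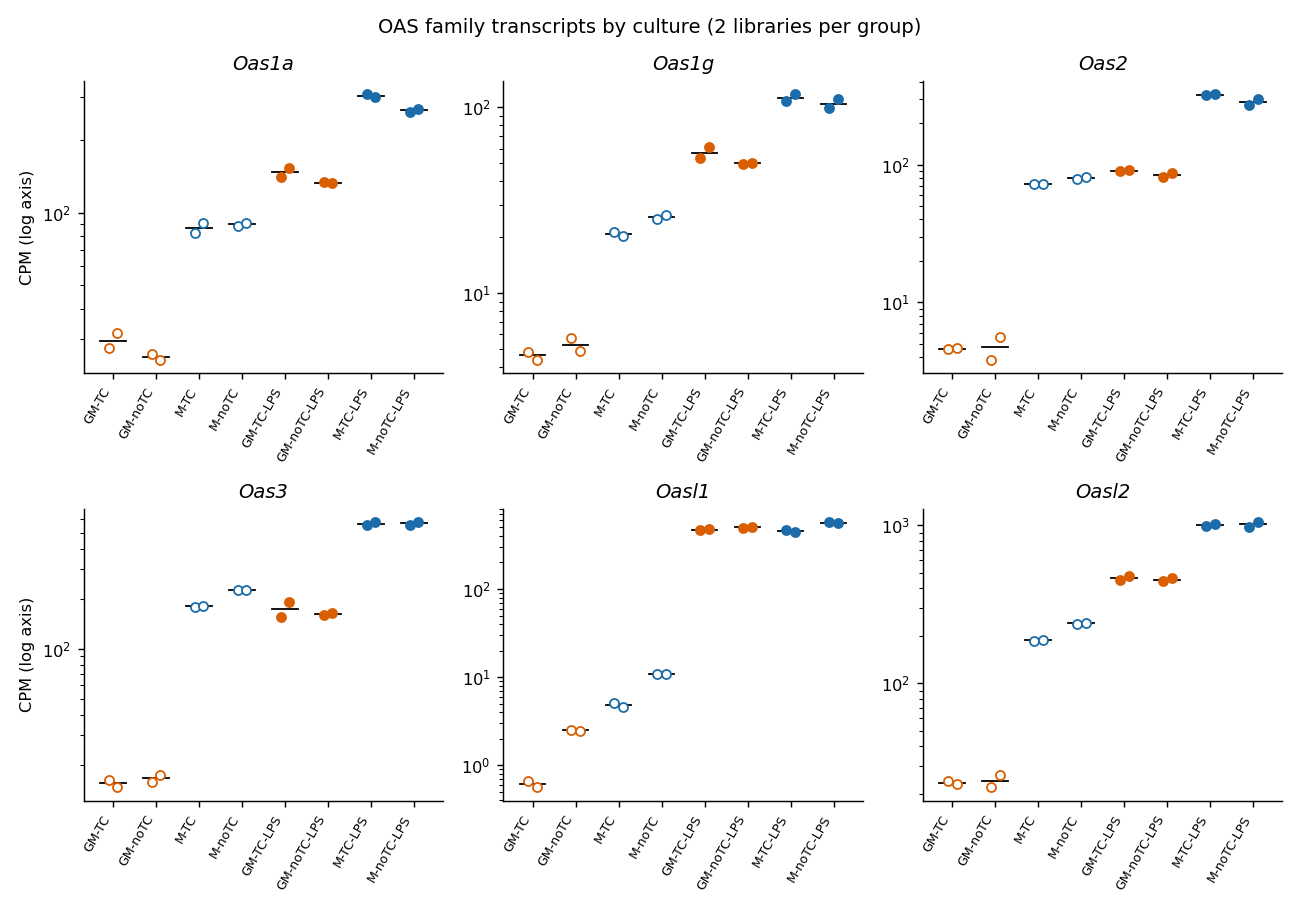
CPM (TMM scaled, log axis) of the 6 members in the 8 groups. Each point is a library and each line the mean of 2, orange for GM-BMDMs and blue for M-BMDMs, open for untreated and filled for LPS; in every panel the untreated GM-BMDM groups are lowest, and for Oasl1 the 4 LPS groups lie between 446 and 575 CPM.

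The scale of the LPS changes depended on how the libraries were scaled. TMM factors were 1.11 to 1.39 in untreated and 0.778 to 0.842 in LPS libraries, and scaling by library size alone shifted the median of all tested genes to between -0.53 and -0.83 on the log2 scale. The 4103 genes called higher and 4282 lower in GM-TC cells became 2149 and 7841 under that scaling, those of GM-noTC went from 4205 and 4261 to 2053 and 7983, those of M-TC from 4709 and 4549 to 2040 and 8648, and those of M-noTC from 4551 and 4496 to 2012 and 8572. Every member was nonetheless called higher, with log2 changes from 0.61 for Oas3 in M-noTC to 9.11 for Oasl1 in GM-TC cells.

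**Figure D2:**
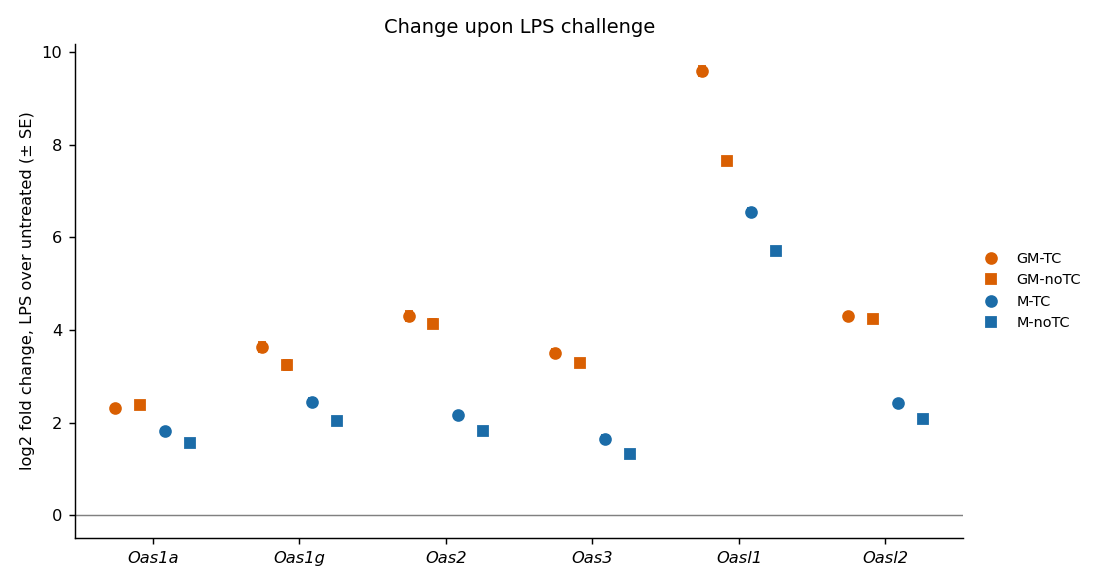
Log2 fold change of LPS over untreated libraries (y axis) with its SE for the 6 members, from the edgeR fit, with circles for TC and squares for noTC dishes and orange for GM-BMDMs and blue for M-BMDMs; all changes shown passed the test. They range from 1.34 for Oas3 in M-noTC to 9.59 for Oasl1 in GM-TC cells, and the orange points lie above the blue ones for each member.

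Resting levels of the whole family differed with the growth factor. All 6 members were lower in GM-BMDMs than in M-BMDMs at steady state on both dishes (edgeR, 6 of 6 called lower on each dish), where 28.9% of the tested genes were called lower on TC and 30.7% on noTC dishes. On TC dishes the difference was largest for Oas2, 15.7-fold lower in GM-BMDMs (log2 -3.97 ± 0.10, edgeR adjusted p = 7.8e-19), and Oas3, 11.7-fold lower (log2 -3.55 ± 0.087). It was 7.98-fold for Oasl1, 7.95-fold for Oasl2, 4.51-fold for Oas1g and 2.92-fold for Oas1a. No member's libraries overlapped between the growth factors, a separation not counted over all tested genes. On noTC dishes the same differences were 16.9-fold, 13.6-fold, 4.35-fold, 9.96-fold, 4.87-fold and 3.53-fold. The median of the members was -2.99 on TC and -2.80 on noTC dishes on the log2 scale, beside 0.02 and 0.00 for all tested genes. With library size scaling the latter became -0.29 on both dishes, the genes called higher and lower went from 4078 and 3619 to 2458 and 6363 on TC and from 3928 and 3837 to 2469 and 6525 on noTC dishes, and all 6 members were still called lower. Dendritic cell and neutrophil markers were higher in the same GM-BMDM libraries, as given above. The summed level of 5 markers of B and plasmacytoid dendritic cells, which include the interferon-stimulated gene Bst2, was likewise lower in GM-BMDMs and higher after LPS. It was 19.6 to 29.0 CPM in untreated GM-BMDMs and 59.8 to 63.2 CPM in untreated M-BMDMs, and 60.3 to 73.2 and 110.1 to 149.5 CPM after LPS. Of the 5 markers, 2 had 0 counts in both M-TC libraries, so the sum does not describe each marker. The part of these markers was not tested.

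After LPS the gap between the growth factors was narrower. Of the 6 members, 5 were lower in GM-BMDMs on TC dishes, where 32.9% of the tested genes were called lower, and 6 on noTC dishes, where 32.6% were. Oas2 was 3.57-fold and Oas3 3.27-fold lower on TC dishes, and Oas1a, Oas1g and Oasl2 were 2.07-fold, 1.98-fold and 2.18-fold lower. Oasl1 was the member that no longer differed detectably on TC dishes, with a log2 difference of 0.03 ± 0.048 (edgeR, adjusted p = 0.54), and on noTC dishes it was 1.13-fold lower in GM-BMDMs (adjusted p = 0.0028, edgeR).

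The narrowing was itself tested as the difference between the LPS responses of GM-BMDMs and M-BMDMs. All 6 members were called higher in this interaction on both dishes, where 17.8% of the tested genes were called higher on TC and 16.9% on noTC dishes. The log2 response of GM-BMDMs exceeded that of M-BMDMs on TC dishes by 3.03 ± 0.19 for Oasl1, 2.14 ± 0.13 for Oas2, 1.86 ± 0.090 for Oasl2, 1.84 ± 0.11 for Oas3, 1.19 ± 0.14 for Oas1g and 0.50 ± 0.095 for Oas1a (edgeR, adjusted p between 3.3e-13 and 0.00021). On noTC dishes the excess was 2.31 for Oas2, 2.16 for Oasl2, 1.95 for Oas3, 1.94 for Oasl1, 1.21 for Oas1g and 0.82 for Oas1a. Oasl1 led on TC dishes and Oas2 on noTC dishes, and Oas1a was last on both. Library size scaling shifted the median of all genes in this contrast to 0.30 on TC and 0.19 on noTC dishes, changed the genes called higher and lower from 2225 and 2920 to 4899 and 1307 on TC and from 2110 and 2418 to 3753 and 1373 on noTC dishes, and left all 6 members called.

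**Figure D3:**
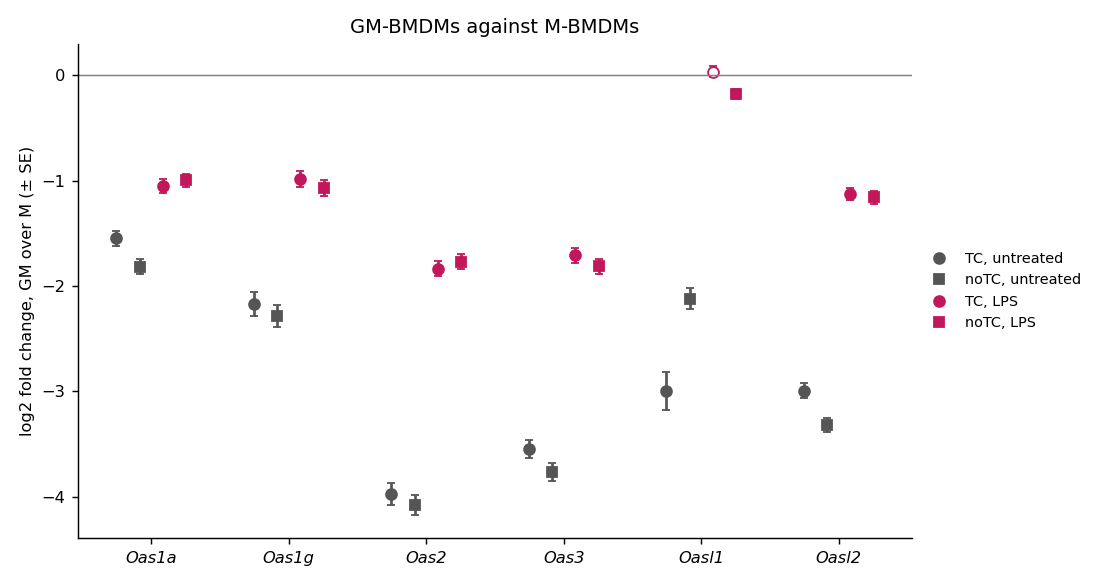
Log2 fold change of GM-BMDMs over M-BMDMs (y axis) with its SE for each member, from the edgeR fit, grey for untreated and pink for LPS libraries, circles for TC and squares for noTC dishes, open where the test was not passed. Grey points lie between -4.08 and -1.55, pink points between -1.83 and 0.03, and the single open point is Oasl1 on TC dishes after LPS.

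Differences between the dish surfaces were small for most members. In untreated GM-BMDMs, 1 of 6 members was called higher on noTC dishes and none lower, where 4.69% of the tested genes were called higher and 2.85% lower. This member was Oasl1, with 0.656 and 0.564 CPM on TC and 2.53 and 2.48 CPM on noTC dishes, a 4.11-fold difference (log2 2.04 ± 0.21, edgeR adjusted p = 7.5e-07). The untreated TC libraries were those with heart muscle transcripts, at 20.1 to 56.1 CPM in sum, whose part in the difference was not tested. The untreated noTC libraries held more of several genes that were high after LPS. Among 16 genes that were under 1 CPM in the untreated GM-TC libraries and at 100 CPM or more after LPS, OAS genes left out, the excess on noTC dishes was 0.312% to 0.727% of their mean level in the 8 LPS libraries, with a median of 0.557%, in CPM of library size without TMM factors. The excess of Oasl1 on this scale was 0.532%, from 0.683 to 2.82 CPM against 401 CPM after LPS. When 0.557% of the LPS mean was subtracted from the untreated noTC libraries, the log2 difference of Oasl1 became -0.25 (adjusted p = 0.78, edgeR), as it must where the excess is below the share removed, so that this value tests nothing further. The other 5 members differed by between -0.23 for Oas1a and 0.20 for Oas1g, with SE up to 0.15, and were not called. Without GM-TC replicate 1, Oas1a was called lower on noTC dishes (log2 -0.32). After the subtraction Oas1a was at -0.27 (adjusted p = 0.044, edgeR). The subtraction can only lower noTC counts, and Oas1a had no excess there to remove (-2.65% of its LPS mean). That call therefore tests nothing further.

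In untreated M-BMDMs, 4 of 6 members were higher on noTC dishes, where 16.1% of the tested genes were called higher. Oasl1 went from 5.15 and 4.60 CPM to 10.9 and 10.9 CPM, a 2.24-fold difference (edgeR, adjusted p = 2.5e-09). In CPM of library size without TMM factors its excess was 2.05% of its LPS mean, from 6.77 to 15.0 against 401 CPM. The excess was 0.0104% to 0.794% in 21 genes selected as above in M-BMDMs. Oasl1 was still called after their median share of 0.481% was subtracted (log2 0.97). These genes were under 1 CPM on TC dishes, and Oasl1 was not, so the 2 are unlike. The other members, also above 1 CPM there, had excesses from 1.49% for Oas1a to 20.4% for Oas3. The comparison therefore does not set Oasl1 apart, and the source of its difference was not tested. The dendritic cell markers were higher in the same noTC libraries, at 15.6 and 17 CPM in sum on TC and 47.6 and 48.1 CPM on noTC dishes, and their part was not tested. Oasl2 was 1.29-fold, Oas3 1.25-fold and Oas1g 1.24-fold higher, with no overlap of the libraries, a separation not counted over all tested genes. Oas1a and Oas2 were not called, with log2 differences of 0.04 ± 0.064 and 0.16 ± 0.070. The sum of Oas1a and Oas1g differed by 0.10 and was not called, and the call for Oas1g was lost without M-TC replicate 2 (log2 0.27) or M-noTC replicate 2 (log2 0.27).

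After LPS no member was called between the dishes in GM-BMDMs, where 2.08% of the tested genes were called higher and 0.727% lower. Of the 6, 2 had an unadjusted p under 0.05 in edgeR, Oas1a at log2 -0.15 and Oas1g at -0.19, and DESeq2 called 0. In LPS-treated M-BMDMs, 1 member was called higher and 1 lower, where 10.4% and 12.9% of the tested genes were. Oasl1 remained higher on noTC dishes, by 1.23-fold (473 and 446 CPM on TC, 575 and 557 on noTC, edgeR adjusted p = 8.7e-05). Oas1a was lower, with 309 and 299.9 CPM on TC and 261 and 269 on noTC dishes (log2 -0.20 ± 0.061, edgeR adjusted p = 0.022). The call for Oas1a was lost without any 1 of the 4 libraries, M-TC-LPS replicate 1 or 2 or M-noTC-LPS replicate 1 or 2, with log2 values between -0.22 and -0.17, and under library size scaling (log2 -0.11). Oas2 lay close to the threshold, at log2 -0.18 ± 0.066 (edgeR, adjusted p = 0.06), and was called by DESeq2 (log2 -0.20). Library size scaling moved the genes called higher and lower in this comparison from 1298 and 1619 to 2102 and 880. The sum of Oas1a and Oas1g was called lower (log2 -0.17).

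Dish differences of M-BMDMs were then compared between untreated and LPS libraries. In the interaction of dish and LPS, 5 of 6 members were called lower, where 7.48% of the tested genes were, and Oas1a was not called (log2 -0.24 ± 0.089). The response on noTC dishes fell short of that on TC dishes by a log2 value of 0.86 ± 0.10 for Oasl1, 0.42 ± 0.11 for Oas1g, 0.36 ± 0.082 for Oasl2, 0.33 ± 0.097 for Oas2 and 0.32 ± 0.096 for Oas3 (edgeR, adjusted p between 6.8e-06 and 0.033). The sum of Oas1a and Oas1g was called at -0.27. With library size scaling only Oasl1 and Oasl2 of the 6 stayed called, and the genes called higher and lower went from 389 and 936 to 764 and 486. Between 1 and 3 members were called without M-TC replicate 1 or 2, M-noTC replicate 1 or 2, M-TC-LPS replicate 1 or 2 or M-noTC-LPS replicate 1, and 4 without M-noTC-LPS replicate 2, Oasl1 being called each time. In GM-BMDMs the same interaction was called for Oasl1 alone (log2 -1.95 ± 0.21, edgeR adjusted p = 7.6e-06), where 0.591% of the tested genes were called lower, and with the subtraction described above, which removes the whole dish difference of Oasl1 at steady state, it was 0.34 and not called.

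The dish differences of the 2 macrophage types were also compared with each other. At steady state the noTC difference of Oasl1 was larger in GM-BMDMs by 0.88 ± 0.24 and that of Oasl2 smaller by 0.32 ± 0.098 on the log2 scale (edgeR, adjusted p = 0.039 and 0.034), where 4.82% and 6.4% of the tested genes were called higher and lower. Both calls depended on the processing. For Oasl1 the subtraction turned the difference to -1.22, which was called. The subtraction removes the whole dish difference of Oasl1 in GM-BMDMs but not in M-BMDMs, so that this value tests nothing further. Without subtraction, the call for Oasl1 was lost when GM-TC replicate 1 or 2 or GM-noTC replicate 1 or 2 was left out. It was also lost without M-TC replicate 1 or M-noTC replicate 1 or 2. For Oasl2 it was lost without GM-TC replicate 1, GM-noTC replicate 1, M-TC replicate 1 or 2 or M-noTC replicate 1 or 2, at log2 values of -0.34 to -0.20. After LPS no member was called, where 6.87% and 3.71% of the tested genes were called higher and lower; 1 member, Oasl1, had an unadjusted p under 0.05 in edgeR (log2 -0.21 ± 0.068), and DESeq2 called 0. Without M-TC-LPS replicate 1, Oasl1 was called (log2 -0.26), and library size scaling, which turned the genes called higher and lower from 860 and 464 to 471 and 962, gave Oasl1 a called difference of -0.32. Without GM-TC replicate 1, Oas1a was called at steady state (log2 -0.36).

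**Figure D4:**
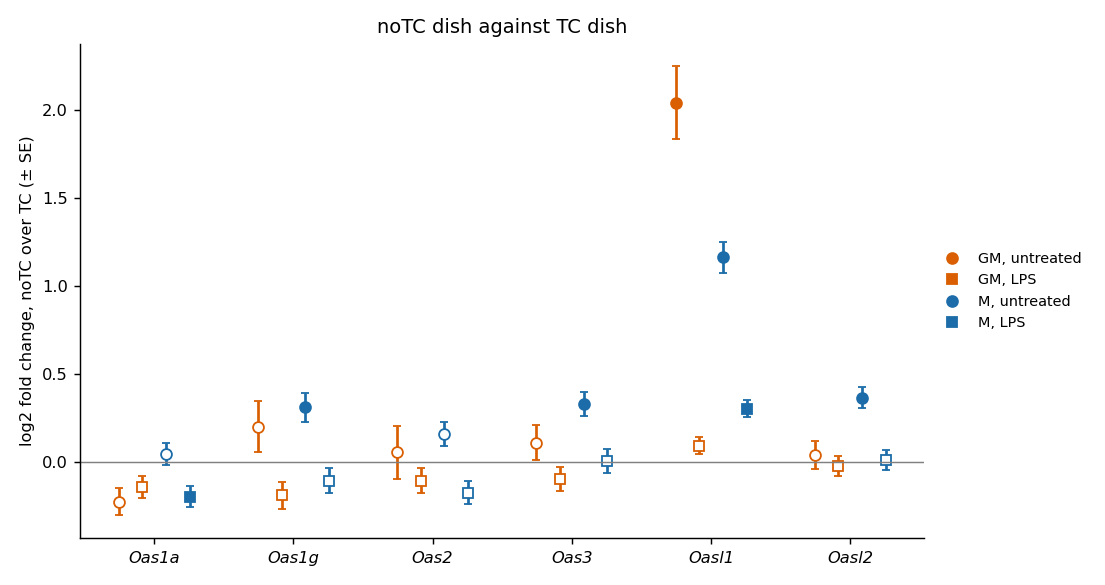
Log2 fold change of noTC over TC libraries (y axis) with its SE for each member, from the edgeR fit, circles for untreated and squares for LPS libraries, orange for GM-BMDMs and blue for M-BMDMs, open where the test was not passed. Oasl1 at steady state stands above the rest at 2.04 in GM-BMDMs and 1.16 in M-BMDMs, and all other points lie between -0.23 and 0.36.

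To compare levels between members, CPM were divided by the length of all exons in kilobases. At steady state Oas1a was the leading transcript of the family. It had 15.7 ± 1.61 CPM per kb in GM-TC cells (SD, n = 2), or 63.1% of the summed level of the 6 members, and 45.9 ± 3.14 CPM per kb or 36.0% in M-TC cells. Oasl1 was last, at 0.948% and 1.47%. After LPS Oasl1 moved from last to first in GM-BMDMs: it led with 180.3 ± 4.28 CPM per kb or 45.1% in GM-TC-LPS cells, and Oas1a was next with 19.5%. In M-TC-LPS cells Oasl1, Oas1a and Oasl2 were close together, at 176 ± 7.37, 161 ± 3.29 and 158 ± 3.38 CPM per kb. The summed level rose from 24.8 to 399.9 CPM per kb in GM-TC and from 128 to 697 for M-TC cells. The length used mattered for Oasl2 and Oas3: with the longest transcript instead of all exons, Oasl2 led in untreated M-TC cells (34.2%, Oas1a 26.3%) and in M-TC-LPS cells (33.9%), while Oas1a still led in GM-TC (51.7%) and Oasl1 in GM-TC-LPS cells (40.7%).

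Of the 6 other mouse OAS genes, Oas1b and Oas1c passed the filter. Oas1b, annotated as a polymorphic pseudogene, rose as well. It read 1.11 and 0.805 CPM for GM-TC and 18.2 and 21.7 for GM-TC-LPS libraries, and 5.30 and 5.28 for M-TC and 39.8 and 40.9 for M-TC-LPS libraries. This was a rise of 21.1-fold and 7.62-fold (edgeR, adjusted p = 3.9e-15 and 2.3e-15). Oas1c moved less, from 4.67 and 4.30 to 10.6 and 9.36 CPM for M-TC cells, or 2.23-fold. Its response was not called as different between the growth factors on either dish (log2 -0.32 ± 0.24 on TC and 0.31 ± 0.23 on noTC). Oas1d and Oas1h stayed at or below 0.465 CPM in every library, and Oas1e and Oas1f had 0 counts in all 16, which allows up to 0.0954 to 0.171 CPM per library.

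Genes linked to the turnover of the oligoadenylates, and Abce1, were examined next. Akap7, whose longer-known product anchors protein kinase A and which also carries a phosphodiesterase domain that cleaves the oligoadenylates, had opposite responses in the 2 macrophage types. It read 18.6 and 16.9 CPM for GM-TC and 4.76 and 5.71 for GM-TC-LPS, and 3.51 and 2.88 for M-TC and 9.60 and 11.5 for M-TC-LPS. On noTC dishes it read 16.5 and 16.1 without and 5.92 and 4.52 with LPS in GM-BMDMs, and 2.46 and 3.72 without and 10.7 and 12.8 with LPS in M-BMDMs. Untreated and LPS libraries did not overlap within any culture. It fell 3.38-fold in GM-TC and 3.12-fold in GM-noTC and rose 3.29-fold in M-TC and 3.72-fold in M-noTC cells, in each setting run. The difference between the responses was -3.48 ± 0.24 on TC and -3.54 ± 0.23 on noTC dishes on the log2 scale (edgeR, adjusted p = 1.5e-10 and 6.3e-11). Abce1, an ATP-binding protein of ribosome recycling, and Pde12, another oligoadenylate phosphodiesterase, were not called in GM-BMDMs and were called higher in M-BMDMs, by log2 0.56 and 0.67 on TC and 0.50 and 0.56 on noTC dishes, but library size scaling turned these to -0.26, -0.15, -0.22 and -0.17 in the same order and gave both genes called values from -0.49 to -0.39 in GM-BMDMs. Pde12 held no whole count in any library, so its values are estimates from shared reads.

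**Figure D5:**
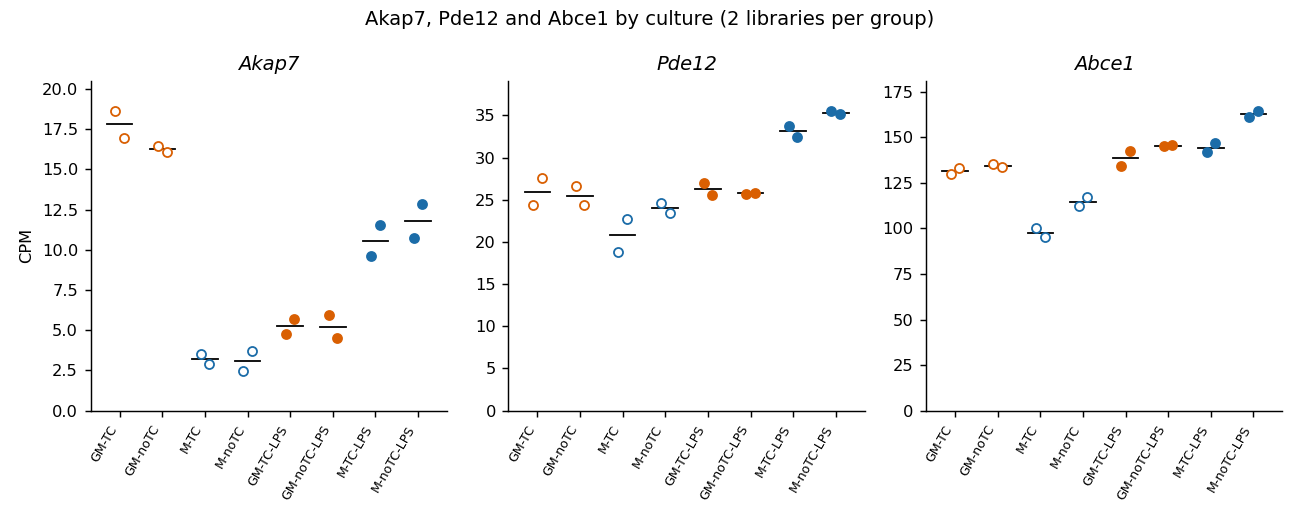
CPM (TMM scaled, linear axis from 0) of Akap7, Pde12 and Abce1 in the 8 groups, with each point a library and each line the mean of 2, orange for GM-BMDMs and blue for M-BMDMs, open for untreated and filled for LPS. Akap7 falls with LPS in orange, from 16.1 CPM or more to 5.92 CPM or less, and rises in blue, from 3.72 CPM or less to 9.60 CPM or more.

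Other sensors of double-stranded RNA and their partners were set beside the family. Of 8 such genes (Eif2ak2, Ifih1, Ddx58, Dhx58, Mavs, Adar, Zbp1, Tlr3), 7 rose with LPS and 1 fell in each culture, with median log2 changes of 3.48, 3.14, 2.65 and 2.48 for GM-TC, for GM-noTC, for M-TC and for M-noTC cells. Of all tested genes 32.8%, 33.6%, 37.6% and 36.4% were called higher in the same order, and 34.2%, 34.0%, 36.4% and 35.9% lower. The counts of the 8 genes were the same with library size scaling. Ifih1, encoding the sensor MDA5, had the largest rise of the list, 42.2-fold in GM-TC and 21.5-fold in M-TC cells. Mavs, the mitochondrial adaptor of the RIG-I-like receptors, was the one that fell, 2.39-fold and 3.92-fold. At steady state 7 of 8 were lower in GM-BMDMs than in M-BMDMs on each dish, where 28.9% of the tested genes were called lower on TC and 30.7% on noTC dishes. The median of the 8 was -1.26 on TC and -1.19 on noTC dishes, beside -2.99 and -2.80 for the OAS members. Mavs was the exception, higher in GM-BMDMs by 0.33 and 0.41, which library size scaling took to 0.02 and 0.12 with no call.

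Of 12 genes of type I interferon signalling, 11 were called higher with LPS in each culture. Of all tested genes 32.8%, 33.6%, 37.6% and 36.4% were called higher, for GM-TC, for GM-noTC, for M-TC and for M-noTC cells. With library size scaling 10, 10, 8 and 9 of the 12 were called higher and 1, 1, 3 and 2 lower. Ifnb1, the interferon beta gene, was at the floor without LPS, at 0 to 4 counts per library, and after LPS read 7.24 and 6.36 CPM for GM-TC-LPS, 9.33 and 8.85 for GM-noTC-LPS, 6.15 and 7.26 for M-TC-LPS and 14.4 and 15.8 for M-noTC-LPS. These were 125 to 316 counts per library, and no fold is given against so few counts. The median of the list was 2.32, 2.27, 1.64 and 1.5 on the log2 scale for the cultures in the order used above, also with Ifnb1 set against 3 counts. Irf7, a transcription factor that amplifies interferon production, rose 61.1-fold in GM-TC and 11.9-fold in M-TC cells and was 17.9-fold lower in GM-BMDMs at steady state on TC dishes (edgeR, adjusted p = 9e-18). In that comparison 8 of the 12 genes were called lower, 1 higher and 3 not, where 28.9% of the tested genes were called lower. The median log2 difference without Ifnb1 was -1.07. With library size scaling 10 were called lower and 0 higher. Irf3, the constitutive factor downstream of TRIF, was not called in GM-BMDMs and fell in M-BMDMs, with log2 changes of -0.31 on TC and -0.32 on noTC dishes, and with library size scaling it was called lower in GM-BMDMs as well (-0.44 on TC and -0.49 on noTC dishes).

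Genes whose pattern over the 8 groups was most like that of a member were found from the root mean square (RMS) difference of centred group means of log2 CPM, among all tested genes outside the family. Oas1a was most like Trim34a (RMS 0.128), Sp100 (0.147) and Uba7 (0.182). Oas1g was most like Slc16a10 (0.135), Dhx58 (0.136) and Ddx58 (0.184), and Oasl2 most like Rtp4 (0.215), Xaf1 (0.249) and Rnf213 (0.294). The nearest genes to Oas2 were Rtp4 (0.472), C5ar1 (0.514) and Ms4a6c (0.515), and to Oas3 C5ar1 (0.247), Fam129a (0.408) and Rtp4 (0.437). Oasl1 was nearest to Rsad2 (0.411), Ifit1 (0.439) and Cmpk2 (0.531). C5ar1, the complement C5a receptor, read 34.6 CPM for GM-TC and 327 for M-TC, and 372 and 1204 after LPS. Rsad2, encoding the antiviral protein viperin, went from 11.9 to 8419.9 CPM for GM-TC cells. Among the members, Oas2 and Oas3 were the most alike (0.365), and Oasl1 was at 2.14 or more from each of the others. With a smaller prior count, 16 of the 18 genes were again among the nearest 3, C5ar1 for Oas2 and Rtp4 for Oas3 being replaced.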

How the data were processed

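RNA-seq of 16 libraries was used. The authors deposited 1 table of estimated counts per gene. The submitters' notes name fastp 0.18.0, Bowtie2 2.2.8, HISAT2, StringTie 1.3.1 and RSEM; which step made the table, and the genome build, are not given in the sources used here. These values were rounded to whole numbers and fitted over 8 groups with edgeR 4.0.16 (R 4.3.3): filterByExpr by group (12514 of 22287 genes), TMM factors and quasi-likelihood tests, with BH adjustment over all tested genes and a threshold of 0.05, for 18 contrasts. The common biological coefficient of variation was 4.75%. The edgeR and DESeq2 tests were tried on simulated counts for 1 contrast, GM-TC-LPS against GM-TC, and the other steps were not. Alternatives were DESeq2 1.42.0 and its size factors, library size scaling, no filter, a replicate block, the libraries of a comparison alone, each library left out, Oas1a and Oas1g summed, and subtraction from untreated noTC libraries of the share of the LPS libraries described above.

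The named genes were the members, the genes of the lists and the 3 genes nearest each member in pattern. Members and lists were chosen with earlier results of these data known. Lists were kept to genes with defined roles: 6 other OAS genes, 4 genes around the oligoadenylates, 8 sensors or their partners and 12 interferon genes. Results of 2 of these genes are not reported here by name. Further marker sums were 1.08 to 16.7 for fibroblasts and 0.0337 to 6.2 for mast cells and basophils. Levels per kilobase used GENCODE exon lengths, and promoter windows came from RefSeq.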

Additional observations from a re-analysis of the deposited data

Results flagged for a closer look

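The values below are differences between log2 fold changes, each with an edgeR adjusted p under 0.05. The LPS response of GM-BMDMs differed from that of M-BMDMs on TC dishes by 0.50 for Oas1a, 1.19 for Oas1g, 2.14 for Oas2, 1.84 for Oas3, 3.03 for Oasl1, 1.86 for Oasl2 and -3.48 for Akap7. On noTC dishes it differed by 0.82 for Oas1a, 1.21 for Oas1g, 2.31 for Oas2, 1.95 for Oas3, 1.94 for Oasl1, 2.16 for Oasl2 and -3.54 for Akap7. The response of M-BMDMs on noTC dishes differed from that on TC dishes by -0.42 for Oas1g, -0.33 for Oas2, -0.32 for Oas3, -0.86 for Oasl1 and -0.36 for Oasl2, and that of GM-BMDMs by -1.95 for Oasl1. At steady state the noTC difference of GM-BMDMs differed from that of M-BMDMs by 0.88 for Oasl1 and -0.32 for Oasl2.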

How the results depend on the processing

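Of the single-gene values for the 6 members, 787 were called or not called as before under alternatives other than leaving out a library, 11 gained a call, 9 lost it and 3 values that had been called changed sign. Among the 787, 16 changed sign with no call in either setting, from sizes of up to 0.39 to sizes of up to 0.196 and in all 6 members; DESeq2, its size factors, library size scaling, summing Oas1a with Oas1g and the subtraction each gave some. The 3 called values turned with the subtraction of a share of the LPS libraries and concerned Oasl1: -0.254 for the dish in untreated GM-BMDMs, 0.343 for dish by LPS in GM-BMDMs, where the number of called members went from 1 to 0, and -1.22 for dish by growth factor at steady state. With library size scaling, 1 member was called for the dish in LPS-treated M-BMDMs, 2 for dish by LPS in M-BMDMs and 1 for dish by growth factor after LPS. Dish by growth factor at steady state had 1 call with DESeq2, 1 with DESeq2 size factors and 0 when fitted on the libraries of the comparison alone, a fit that gave 1 call for the same interaction after LPS. Leaving out 1 library at a time gave 1 to 2 calls for the dish in untreated GM-BMDMs, 1 to 2 in LPS-treated M-BMDMs, 1 to 4 for dish by LPS in M-BMDMs and 0 to 1 for dish by growth factor, both at steady state and after LPS. Of these values per gene, 532 were called or not as before, 22 of them with a changed sign and no call, 4 gained a call and 40 lost it. Same-numbered replicates did not deviate together (correlations of -0.0636 to 0.020). This cannot show whether same-numbered libraries shared a mouse or a preparation. A fit with the replicate block called Oas2 in LPS-treated M-BMDMs on noTC dishes (-0.178, edgeR adjusted p = 0.04) and changed no other call of a member. The cause of these changes was not tested, except that the subtraction lowers untreated noTC levels by construction and had to remove a difference no larger than the share. With 2 libraries per group, a library left alone in its group was assumed to vary like the others. The 13 and 14 counts of Oasl1 in untreated GM-TC cells limit its fold changes.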
